A study of Mus musculus with 22 samples.

Results

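The constitutive strong sites are 1059 ATAC-seq peaks whose accessibility was high and similar from spermatogonia to later male germ cells of the mouse. They were selected on their CPM in control and later libraries, among 96049 peaks, of which 93867 lie on chromosomes 1 to 19. CPM is the count in a peak after every library has been scaled to one common total of counts in peaks. A peak was kept if its mean reached at least 40 CPM in control KIT-negative spermatogonia, in control KIT-positive spermatogonia and in later germ cells, and if the highest of these means was at most 1.5 times the lowest. The name states this rule on 8 control and 5 later libraries, and not that the sites were equal in every library. The 9 TERT-deleted libraries took no part in the choice. The rule did limit the ratio of KIT-positive to KIT-negative cells in the controls, so the size of that difference in deleted cells is not independent of it.

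ATAC-seq uses the Tn5 transposase to place sequencing adapters in open chromatin, and a read count per peak measures how open a site is. The series asks what acute loss of TERT, the reverse transcriptase of telomerase, does to open chromatin in spermatogonia of C57BL/6 mice aged 8 to 12 weeks. TERT-deleted cells were sorted on day 7 after tamoxifen into MCAM-high KIT-negative, MCAM-medium KIT-negative and MCAM-medium KIT-positive spermatogonia, with 3 libraries each. TERT-heterozygous control cells of the same sorts gave 3, 2 and 3 libraries. MCAM is a surface adhesion molecule, and KIT is the receptor of differentiating spermatogonia. The genotype entry is TertCreER/+:Rosalsl-Tdtomato/+ for both deleted and control spermatogonia, so all 17 carry a tamoxifen-dependent Cre at Tert and a reporter, and the deleted status rests on the sample titles. The other 5 libraries carry TertTdtomato/+ and come from spermatocytes or round spermatids. For 4 of these 5 the title and the library name disagree on the cell type, and all 5 names carry the mark Het1, so they were kept as 1 group of later germ cells.

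Housekeeping promoters of vertebrates usually lie in CpG islands, stretches rich in G, C and CpG that are accessible in most cell types. They are bound by widely expressed factors such as SP/KLF, ETS, NRF1, NF-Y and YY1, and they often drive a pair of genes that run apart from each other. As male germ cells move from stem cells through differentiation into meiosis and spermatid formation, stage-specific sites open and close, while such promoters serve basic needs such as translation, respiration and protein folding.

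The promoter windows of 3 strong sites show the letters at issue. Each window holds 250 bases before and 50 after an annotated start, written 5′ to 3′ on the strand of the gene, from RefSeq (GRCm38.p6). Capitals mark matches to SP/KLF (GGGCGG), NF-Y (ATTGG) and E-box (CACGTG) motifs on either strand. The ETS motif (CCGGAAG) was searched for as well, and these 3 windows hold no match to it.
Mon1b (chr8:113635336-113635635, plus strand): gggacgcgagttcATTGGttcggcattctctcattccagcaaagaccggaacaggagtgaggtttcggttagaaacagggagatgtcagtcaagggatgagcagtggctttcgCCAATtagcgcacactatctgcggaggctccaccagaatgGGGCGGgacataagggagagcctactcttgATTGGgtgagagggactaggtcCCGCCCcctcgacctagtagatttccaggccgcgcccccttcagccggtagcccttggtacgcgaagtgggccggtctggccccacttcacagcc
Tom1 (chr8:75033436-75033735, plus strand): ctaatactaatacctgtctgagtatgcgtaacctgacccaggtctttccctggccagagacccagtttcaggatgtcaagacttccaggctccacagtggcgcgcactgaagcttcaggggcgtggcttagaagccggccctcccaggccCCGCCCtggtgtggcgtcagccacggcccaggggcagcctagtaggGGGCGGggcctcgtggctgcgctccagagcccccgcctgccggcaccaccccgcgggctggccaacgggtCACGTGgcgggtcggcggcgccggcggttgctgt
Hspa5 (chr2:34771840-34772139, plus strand): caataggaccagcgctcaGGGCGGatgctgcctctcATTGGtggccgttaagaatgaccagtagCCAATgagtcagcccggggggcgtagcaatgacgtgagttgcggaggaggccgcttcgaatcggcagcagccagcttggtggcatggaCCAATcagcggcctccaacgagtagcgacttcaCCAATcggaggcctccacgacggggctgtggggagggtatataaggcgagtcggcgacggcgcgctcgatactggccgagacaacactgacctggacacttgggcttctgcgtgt
The windows of Mon1b and Hspa5 hold 3 and 4 NF-Y matches and those of Mon1b and Tom1 2 SP/KLF matches each, whereas the E-box match is in the Tom1 window.

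Further factors known for housekeeping promoters have longer motifs, and 5 stretches of 30 bases show one match each in capitals, from the same table and build. They were taken from strong members that hold such a match.
Pign, BANP match (chr1:105663854-105663883, minus strand): tggtccctagTCTCGCGAGAactggcttgg
Hnrnpf, NRF1 match (chr6:117906602-117906631, plus strand): cgcaatgtttGCGCCTGCGCcgtcactgtc
Ppp4r3b, YY1 match (chr11:29172981-29173010, plus strand): gtcgggttacAAGATGGCGGatctgtagta
Ppp4r3b, ZNF143 match (chr11:29172989-29173018, plus strand): acaagatggcGGATCTGTAGTagtaaccgc
Pgap2, CREB/ATF match (chr7:102210422-102210451, plus strand): agagaggctcaTGACGTCAcacaggcccct
The YY1 and ZNF143 matches at Ppp4r3b overlap, so they are not separate stretches of DNA.

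Libraries held 922085 to 3358377 counts in peaks, and the median member 62 to 232 of them. A count of 0 would allow a level of up to 3 counts, or 0.893 to 3.25 CPM, far under the members' levels. Such limits cover counting error only. The Kit peak followed its gate, whereas the Mcam peak did not part the MCAM gates. The Kit gene-end peak had 49.5 to 85.7 CPM in deleted KIT-positive libraries against 32.1 to 40.1 CPM in deleted MCAM-high ones. At Mcam, deleted MCAM-high libraries had 20.5 to 36.7 CPM and deleted MCAM-medium ones 20.7 to 30.9 CPM. Summed gene-end peaks of differentiating spermatogonia genes had 542 to 574 CPM in deleted KIT-positive and 351 to 448 CPM in deleted MCAM-high libraries. Those of undifferentiated spermatogonia genes overlapped, with 545 to 697 and 614 to 650 CPM. Prm1, a spermatid gene, had 12.6 to 25.1 CPM in later germ cells and 0 to 6.53 CPM in spermatogonia. The Tert gene-end peak had 13.0 to 22.9 CPM in deleted and 14.1 to 29.8 CPM in control spermatogonia. The removed part of Tert is not given in the sources used here, and this peak therefore does not check the deletion. The labels do not tie replicates to separate mice. A p-value here therefore rests on the variation among libraries, part of which may be technical.

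The values that chose the sites are given as a description. The members' median level was 61.4 CPM over control KIT-negative libraries, 67.5 CPM over control KIT-positive ones and 64.2 CPM over later germ cells. The median ratio of highest to lowest mean was 1.31. Control KIT-positive cells were the highest of the 3 at 545 members, and control KIT-negative cells the lowest at 553. A further 1532 autosomal peaks reached 40 CPM in all 3 means but exceeded the ratio limit, of which 969 were highest in control KIT-positive cells, 358 in later germ cells and 205 in control KIT-negative cells. They are called here the strong sites over the ratio limit. Just inside the level limit lay the sites of Ccdc40, a ciliary assembly gene, with a lowest mean of 40.1 CPM, and Dgat1, a triglyceride synthesis enzyme, also with 40.1 CPM. Rabgap1l and H2-Q6 lay just outside, with lowest means that fell short of 40 CPM by under 0.1 CPM. Ahcyl1 and Stard3nl lay just inside the ratio limit and Chid1 and Arl2 just outside it, all 4 with ratios that round to 1.5.

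The constitutive strong sites took up a similar part of every library, on average largest in KIT-positive cells. They held 8.20 ± 0.621% of counts in deleted KIT-positive cells, 6.83 ± 0.0582% in deleted MCAM-medium cells and 6.73 ± 0.202% in the deleted MCAM-high group (SD, n = 3 each). Control KIT-positive cells were at 7.90 ± 1.15% (n = 3), control MCAM-medium cells at 7.01 ± 0.454% (n = 2), control MCAM-high cells at 7.03 ± 0.181% (n = 3) and later germ cells at 7.38 ± 0.217% (n = 5). All 3 deleted KIT-positive libraries, at 7.69 to 8.90%, lay above the 6 deleted KIT-negative ones, at 6.52 to 6.92%. In 3 libraries over 60% of the members' counts were even numbers, with 63.4% in deleted KIT-positive replicate 1, 67.5% in deleted MCAM-medium replicate 3 and 66.9% in control KIT-positive replicate 3, against 47.3 to 57.8% in the others. The KIT-positive libraries among them had the highest shares of counts in members, 8.90 and 9.11%, and the MCAM-medium one had 6.89%, against 6.78 and 6.81% in the others of its group. Without them, deleted KIT-positive libraries were at 7.69 and 8.02%, still above all deleted KIT-negative ones. How reads were counted is not given in the sources used here, and results that change without these 3 libraries are given both ways. In such bulk samples, fewer cells of a type and less signal per cell cannot be told apart. Single members reached up to 296 CPM, and 1054 of 1059 held at least 20 CPM in each of the 22 libraries.

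**Figure D1:**
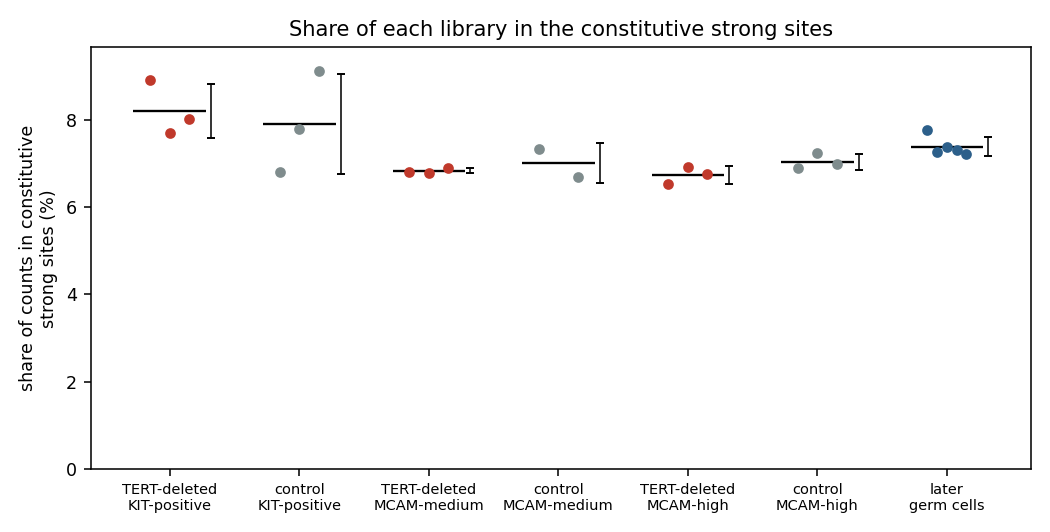
Share of total counts that fell in the 1059 constitutive strong sites (y axis, percent) for each library (points), by group, with the mean (line) and SD (bar). The deleted KIT-positive libraries sit at 7.69 to 8.90%, above the deleted MCAM-high and MCAM-medium libraries at 6.52 to 6.92%.

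Most of the sites lay at gene ends, and most held a transcription start. A gene end here is the start or the end of a gene. Of the 1059, 962 (90.8%) lay within 1 kb of an end of a protein-coding or lncRNA gene, against 24.5% of all autosomal peaks and 91.3% of the strong sites over the ratio limit. A further 83 lay in a gene body and 14 between genes. The peak held an annotated transcription start at 877 members (82.8%), against 13.2% of all autosomal peaks and 81.7% of the strong sites over the ratio limit. Starts on both strands, as at a promoter shared by genes that run apart, were held by 243 members (22.9%), by 23.6% of the strong sites over the ratio limit and by 1.70% of all autosomal peaks. The members' median width was 1080 bp (range 546 to 2492), against 416 bp over all autosomal peaks and 1115 bp over the strong sites over the ratio limit. The level limit is on counts per peak, not scaled by width, and so favours wide peaks. Position thus set the members apart from the bulk of peaks, whereas strong sites that varied between stages had nearly the same shares. Every autosome held members, 25 on chromosome 15 to 97 on chromosome 4.

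The highest site at a gene end over the 9 deleted libraries was that of Mon1b, which encodes a subunit of the complex that activates Rab7 on endosomes (chr8:113634711-113635966, at the start whose window is printed above). It had 270.0, 290.1 and 236 CPM in deleted KIT-positive libraries, 172, 197 and 159 CPM in deleted MCAM-medium libraries and 111, 136 and 146 CPM in deleted MCAM-high libraries. In the libraries of the rule it had 238, 207 and 249 CPM in control KIT-positive, 143 and 203 CPM in control MCAM-medium, 181, 129 and 123 CPM in control MCAM-high and 170.3, 170.2, 186, 172 and 174 CPM in later germ cells. The 3 deleted KIT-positive libraries stood above all 6 deleted KIT-negative ones, and the later germ cells kept to a narrow range within that of MCAM-medium cells.

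The site at Rnf5, a ubiquitin ligase of the endoplasmic reticulum, and Agpat1, an enzyme of phosphatidic acid synthesis (chr17:34603303-34604493), had 241, 296 and 224 CPM in deleted KIT-positive, 181, 197 and 109.6 CPM in deleted MCAM-medium and 103, 121 and 117 CPM in deleted MCAM-high libraries. Its KIT-positive and MCAM-high libraries were well apart, and MCAM-medium libraries ran from the MCAM-high level upward.

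The Tom1 site, at the start of an adaptor of endosomal sorting (chr8:75033323-75034572), had 249, 166 and 236 CPM in deleted KIT-positive, 127, 149 and 141 CPM in deleted MCAM-medium and 139, 138 and 144 CPM in deleted MCAM-high libraries. Among the KIT-positive libraries the second was close to the KIT-negative ones. The site shared by the starts of Nup98, a nuclear pore protein, and Pgap2, which remodels lipid anchors of surface proteins and whose CREB/ATF stretch is printed above (chr7:102209669-102210987), had 201, 210.2 and 199 CPM in deleted KIT-positive, 136, 155 and 128 CPM in deleted MCAM-medium and 144, 142 and 160.0 CPM in deleted MCAM-high libraries. The Pgrmc2 site, at the start of a haem-binding membrane protein (chr3:41082477-41083910), had 232, 184 and 188 CPM in deleted KIT-positive and 134, 153 and 165 CPM in deleted MCAM-high libraries. At Nup98 and Pgrmc2 the KIT-positive and MCAM-high libraries also did not overlap.

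The same level and ratio limits were then read in the deleted libraries, which the rule had not used, as KIT-negative (6 libraries) and KIT-positive (3 libraries) means. Both limits were met by 883 of 1059 members (83.4%). Of the rest, 58 fell under the level limit, and 118 kept the level but exceeded the ratio, with KIT-positive higher at 117 of them. The share was 80.7% (1381 of 1711) for peaks that met the limits in control spermatogonia but failed in later germ cells. Among the strong sites over the ratio limit it was 91.2% (187 of 205) for those highest in control KIT-negative cells. It was 67.6% for those highest in later germ cells and 41.5% for those highest in control KIT-positive cells. Keeping the limits in deleted cells was thus not particular to the members. With library sizes scaled by TMM (edgeR's trimmed mean of M-values) in place of total counts, the share of members fell to 61.0%. At least 40 CPM in each of the 9 deleted libraries was kept by 653 members, and in each of the 22 by 564.

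Members had a lower median spread over the deleted libraries than other strong peaks, a difference given without a test, since the rule had already limited the variation of members in the other libraries. The median coefficient of variation over the 9 libraries was 20.5% for members and 25.2% for the 3795 other autosomal peaks that averaged at least 40 CPM there. Within a deleted group it was 16.6% for members and 17.8% for the others, and counting error alone gives 11% in both after rounding. The steadiest was the site at the start of Arfgap2, which turns off the Arf GTPase of Golgi vesicles (chr2:91264753-91265730), with 71.0, 67.7 and 64.1 CPM in deleted KIT-positive, 68.3, 63.5 and 75.3 CPM in deleted MCAM-medium and 76.5, 74.3 and 71.7 CPM in deleted MCAM-high libraries, a coefficient of 6.72%. In control KIT-positive libraries, which the rule used, it had 52.2, 47.7 and 68.5 CPM, under the 77.1, 91.6 and 88.0 CPM of control MCAM-high libraries. The next steadiest were Arl13b, a GTPase of cilia, at 8.00%, Slc35f5, of a family of nucleotide sugar transporters, at 8.02%, and Eno1, the glycolytic enzyme enolase, at 8.73%. By CPM the deleted KIT-positive libraries lay just under the MCAM-high ones at Arfgap2, while the TMM-scaled log2 fold change was 0.06. Arl13b had 111, 114 and 88.8 CPM in deleted KIT-positive and 114, 110.5 and 102 CPM in deleted MCAM-high libraries, and Eno1 93.5, 82.6 and 77.2 CPM in deleted KIT-positive and 86.8, 83.2 and 90.8 CPM in deleted MCAM-high libraries. At Arl13b and Eno1 the groups overlapped, and none of these 4 sites passed in the tests between deleted populations. They were picked for their low spread, so this is a description.

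Deleted KIT-positive cells were set against deleted MCAM-high cells to ask how far the sites change with differentiation, in libraries the rule did not use. Of the 1059 members, 257 (24.3%) were higher in KIT-positive cells and 0 lower (edgeR quasi-likelihood test, Benjamini-Hochberg adjusted p under 0.05 over 57289 peaks), with 489 at an unadjusted p under 0.05. DESeq2 called 235 higher and 1 lower. Over all tested peaks, 13.7% were called, 9.39% higher and 4.35% lower, and among the strong sites over the ratio limit 58% were called, 879 (57.4%) higher and 10 lower. The members' median log2 fold change was 0.47, against -0.05 over all tested peaks and 0.76 over the strong sites over the ratio limit. It was above 0 at 961 members and above 1 at 48, and ran from -0.73 to 1.48. Called members had a median log2 fold change of 0.85. In the control libraries the log2 ratio of KIT-positive to KIT-negative means, which the rule used, had a median of 0.40 at called and 0.11 at other members, and their median levels in the deleted libraries were 72.4 and 60.2 CPM. Most of the sites thus leaned to KIT-positive cells by less than a doubling. The rule parted members from the strong sites over the ratio limit by this same ratio in control cells, so the smaller values of members are no finding. Members hold more counts than most tested peaks, so a given fold passes more readily at them, and the shares were not adjusted for this.

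**Figure D2:**
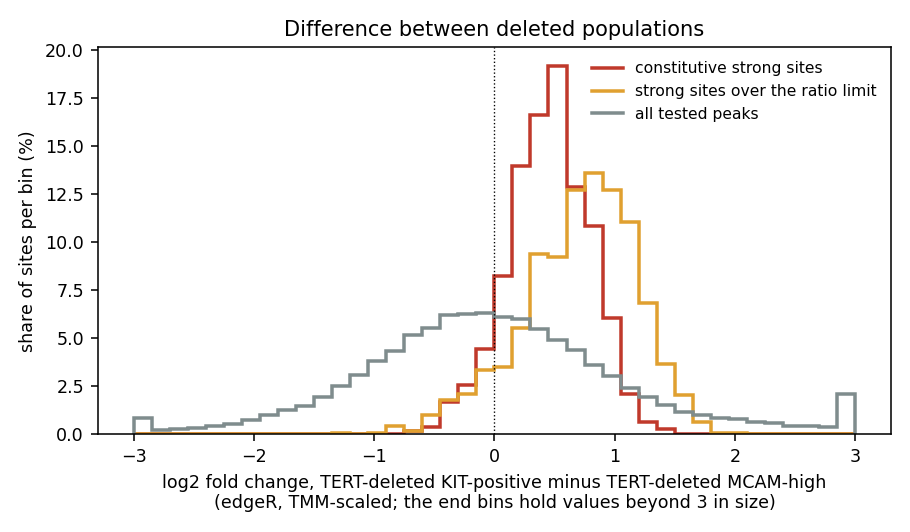
Distribution of the log2 fold change between deleted KIT-positive and deleted MCAM-high cells (x axis) as the share of sites in each bin (y axis, percent), for the constitutive strong sites, the strong sites over the ratio limit and all tested peaks. The 3 medians are 0.47, 0.76 and -0.05, and values beyond 3 in size are in the end bins.

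This count depends on scaling and on single libraries. Scaled to total counts, 117 members were higher and 10 lower with a median log2 fold change of 0.23, a shift of 0.23, and all tested peaks split into 3576 higher and 4154 lower in place of 5382 and 2492. Among the named sites whose fold was near 0, total-count scaling turned the sign at Arfgap2, Arl13b, Slc35f5, Eno1, Dcun1d4, Gtf2h1, Rnf2, Terf1 and Sycp2. The number of called members was 126 without deleted KIT-positive replicate 1, and 145, 137 and 143 without deleted MCAM-high replicate 1, 2 or 3. Without the 3 libraries of mostly even counts it was 178, with 176 higher and 2 lower and a median log2 fold change of 0.35, against 5405 calls over all tested peaks.

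Summed CPM at the gene-end peaks of markers of other testis cells also differed in this comparison. Sertoli markers (9 of 13 with a peak) had 139 to 193 CPM in deleted KIT-positive and 198 to 231 CPM in deleted MCAM-high libraries. Immune markers (5 of 11) had 51.0 to 55.3 CPM in deleted KIT-positive and 66.3 to 80.0 CPM in deleted MCAM-high libraries. Peritubular and endothelial markers (8 of 13) had 138 to 172 CPM in deleted KIT-positive and 177 to 242 CPM in deleted MCAM-high libraries, and Leydig markers (2 of 9) 30.3 to 56.0 CPM in deleted KIT-positive and 54.1 to 72.3 CPM in deleted MCAM-high libraries. All of these lists were thus lower in KIT-positive libraries, the Leydig list with an overlap. CPM is scaled to total counts, and on that scale the median log2 fold change over all tested peaks was itself -0.28. The sums were not adjusted for this general shift. No marker with a peak was at 0 over a group, and the part of these cells in the members' difference was not tested.

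Among the called members the smallest p-values belonged to Rnf5, Tsc22d1, Mon1b and Adnp. At Rnf5 the log2 rise was 1.36 (SE 0.21, edgeR adjusted p = 1.16e-05) and at Mon1b 1.21 (SE 0.20, edgeR adjusted p = 4.14e-05). The site at the start of Tsc22d1, a leucine zipper factor induced by TGF-beta (chr14:76413982-76415251), had 145, 116 and 116 CPM in deleted KIT-positive, 65.7, 65.7 and 72.0 CPM in deleted MCAM-medium and 47.6, 60.01 and 46.7 CPM in deleted MCAM-high libraries. KIT-positive libraries lay clear of both other populations, and the log2 fold change against MCAM-high was 1.48 (SE 0.24, edgeR adjusted p = 2.96e-05). In control KIT-positive libraries it had 66.4, 98.7 and 122 CPM against 71.5, 73.6 and 65.1 CPM in control MCAM-high libraries, which overlapped.

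Adnp encodes a chromatin protein that partners with CHD4, and its site (chr2:168206886-168208213), also within 1 kb of Dpm1, a mannose donor enzyme, had 91.7, 76.0 and 113 CPM in deleted KIT-positive, 49.6, 43.6 and 32.7 CPM in deleted MCAM-medium and 28.005, 43.0 and 45.8 CPM in deleted MCAM-high libraries. KIT-positive libraries lay clear of the rest, and the log2 fold change against MCAM-high was 1.45 (SE 0.25, edgeR adjusted p = 7.29e-05). In the control libraries, which the rule had held to its ratio limit, KIT-positive libraries had 59.7, 74.8 and 62.4 CPM and MCAM-high libraries 32.7, 43.1 and 45.7 CPM. Tom1 (log2 fold change 0.82, SE 0.20, edgeR adjusted p = 0.00327) also rose, as did Nup98 (0.65, SE 0.19, edgeR adjusted p = 0.015). The call of Nup98 was lost without deleted MCAM-high replicate 1 or 2, and with total-count scaling (edgeR adjusted p from 0.0568 to 0.0669). Pgrmc2 was at 0.61 (SE 0.22, edgeR adjusted p = 0.0508).

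**Figure D3:**
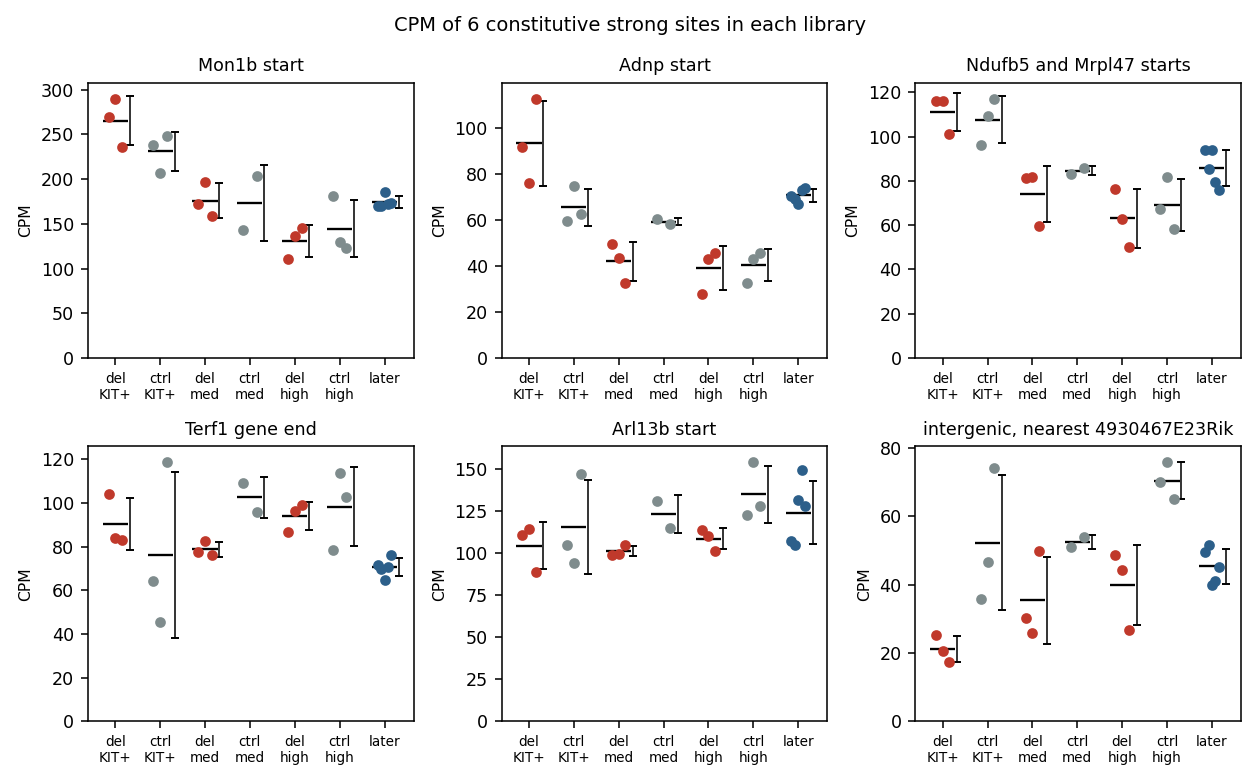
CPM (y axis) of 6 constitutive strong sites in each library (points), with the mean (line) and SD (bar) of each group; deleted groups are red, control groups grey and later germ cells blue. Mon1b, Adnp and Ndufb5 stand higher in deleted KIT-positive than in deleted MCAM-high libraries, Terf1 and Arl13b overlap between these groups, and the intergenic site is lower in deleted than in control groups on average.

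Against deleted MCAM-medium cells, deleted KIT-positive cells were higher at 128 members and lower at 1 (12.2% of 1059). Over all tested peaks 6.87% were called, 4.59% higher and 2.27% lower, and over the strong sites over the ratio limit 41.9% (41.6% higher and 0.326% lower). The members' median log2 fold change was 0.43, against -0.06 over all tested peaks. This comparison shares its KIT-positive libraries with that against MCAM-high cells, and 90 members were called higher in both, 35.0% of the 257 and 70.3% of the 128. The strongest of them stood well apart from MCAM-medium cells. Septin7, a GTP-binding cytoskeletal protein (chr9:25251387-25252820), had 148, 115 and 139.8 CPM in deleted KIT-positive and 71.5, 59.8 and 69.5 CPM in deleted MCAM-medium libraries, a log2 difference of 1.18 (SE 0.22, edgeR adjusted p = 0.000458). Adnp was at 1.32 (SE 0.25, edgeR adjusted p = 0.000444). The only member called lower was a site inside Taok3, a kinase of the TAO family (chr5:117125552-117126412), with 38.9, 33.3 and 35.7 CPM in deleted KIT-positive, 79.9, 69.4 and 88.4 CPM in deleted MCAM-medium and 64.4, 65.5 and 64.2 CPM in deleted MCAM-high libraries. All 3 KIT-positive libraries lay under the other 6, and the log2 fold change was -0.97 (SE 0.25, edgeR adjusted p = 0.0117). The call of Taok3 was lost without deleted MCAM-medium replicate 3 or deleted KIT-positive replicate 2 (edgeR adjusted p from 0.0604 to 0.0642). The number of called members was 46 and 70 without deleted KIT-positive replicate 1 or 3, and 54, 50 and 54 without deleted MCAM-medium replicate 1, 2 or 3. Without the 3 libraries of mostly even counts it was 50 (49 higher). Scaled to total counts it was 58 (56 higher), and all tested peaks split into 1682 higher and 2105 lower in place of 2631 and 1303.

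Between deleted MCAM-medium and deleted MCAM-high cells, both KIT-negative, 0 members were called by edgeR and 0 by DESeq2, with 41 at an unadjusted p under 0.05 in edgeR. Over all tested peaks 0.014% were called, 0.0105% higher. The members' median log2 fold change was 0.04. Fitting these groups alone gave 6 members.

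Deletion of TERT itself was compared through deleted minus control cells, averaged over the 3 populations. The control libraries of this contrast also chose the members, so the values are a description. Of 1059 members, 1 was called, lower (0.0944%), against 0.124% of all tested peaks (0.103% higher and 0.0209% lower) and 0.0653% of the strong sites over the ratio limit, higher, and the members' median log2 fold change was -0.03. In MCAM-high, MCAM-medium and KIT-positive cells on their own, edgeR and DESeq2 each called 0 members, with 16, 17 and 14 members at an unadjusted p under 0.05 in edgeR, and all tested peaks were called at 0.0489, 0.00873 and 0.00349%. The called member lies between genes on chromosome 8 (chr8:19784468-19785190), over an annotated pseudogene, and 4930467E23Rik is the nearest protein-coding gene at 30865 bp. It had 48.5, 44.3 and 26.7 CPM in deleted MCAM-high against 70.0, 75.9 and 65.1 CPM in control MCAM-high libraries. In MCAM-medium cells it had 30.3, 25.8 and 49.9 CPM in deleted against 51.1 and 53.9 CPM in control libraries, and in KIT-positive cells 25.1, 20.5 and 17.5 CPM in deleted against 35.8, 46.6 and 74.1 CPM in control libraries. The deleted libraries lay under the control ones in each population, and the log2 fold change of the mean was -0.92. The site is a member because its control means, 63.2 CPM in KIT-negative and 52.2 CPM in KIT-positive cells, met the level limit, whereas its mean over the deleted libraries, 32.1 CPM, was under it. This choice favours a lower value in deleted cells, so no p-value is given for it. The mice differ along with the genotype, so the genotype and the mice cannot be told apart here, and counts over a pseudogene are uncertain, since a pseudogene resembles another gene.

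The gene lists ask which basic functions have such a site at a gene end. Over all 20661 autosomal protein-coding genes, 1181 (5.72%) had a constitutive strong site at a gene end. The share was 5 of 20 for aminoacyl-tRNA synthetases and for chaperonins and heat shock proteins, and 5 of 27 for the respiratory chain with ATP synthase and for DNA repair. It was 4 of 27 for proteasome subunits and for RNA polymerase II with its general factors. Cytosolic ribosomal proteins had 3 of 31, spliceosome genes 3 of 32, translation factors 2 of 21, ubiquitin and cell cycle turnover 2 of 21, and chromatin regulators 2 of 28. Meiosis genes had 2 of 29 and telomere genes 1 of 20. None was at an end of the 25 genes of undifferentiated spermatogonia, the 13 of differentiating spermatogonia, the 18 of spermiogenesis or the markers of Sertoli, Leydig, immune, peritubular and endothelial cells. A further 1686 autosomal protein-coding genes had only a strong site over the ratio limit at a gene end. Such genes outnumbered those with a member among spliceosome genes (12), translation factors (11), chaperones (9), ubiquitin and turnover (9), chromatin regulators (9) and ribosomal proteins (5). They were fewer among synthetases (2), polymerase II (2), proteasome (1) and respiratory genes (0), and as many in DNA repair (5). Of the 20661 genes, 14990 had any peak at a gene end, whereas nearly all genes of the lists of basic functions had one. The share of 5.72% is thus a low reference for those lists. The lists were not limited to autosomes, where all members lie. These lists are small, and their shares are given without a test.

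**Figure D4:**
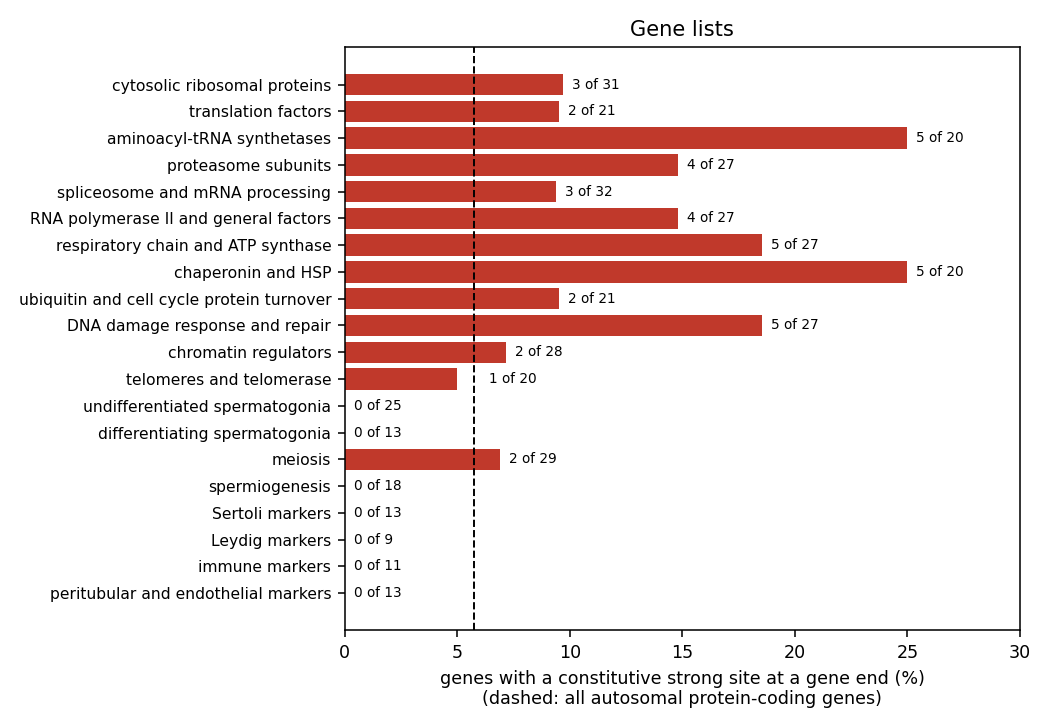
Share of the genes of each list that have a constitutive strong site at a gene end (x axis, percent; bars, with counts), and the share over all autosomal protein-coding genes, 5.72% (dashed line). Synthetases and chaperones reach 5 of 20, and the spermatogonial, spermiogenesis and somatic lists 0.

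In protein synthesis, the synthetase sites were those of Qars, Tars, Wars, Vars and Cars, which charge tRNAs with glutamine, threonine, tryptophan, valine and cysteine. Of the 5, 1 rose in deleted KIT-positive against deleted MCAM-high cells, that at an end of Qars. The 5 had a median log2 fold change of 0.46. Over all members 24.3% were called higher and 0 lower with a median of 0.47, and over all tested peaks 9.39% higher and 4.35% lower with a median of -0.05, so 1 of 5 is near the share of members. The site at Qars holds an annotated start of the neighbouring gene Qrich1 and none of Qars (chr9:108516568-108518151), so it may be the promoter of Qrich1 alone. It had 137, 93.2 and 105 CPM in deleted KIT-positive and 90.5, 67.5 and 71.7 CPM in deleted MCAM-high libraries (log2 fold change 0.74, SE 0.22, edgeR adjusted p = 0.0177). The call of Qars was lost without deleted MCAM-high replicate 2 or 3 or deleted KIT-positive replicate 1, and with total-count scaling or without the libraries of mostly even counts (edgeR adjusted p from 0.0711 to 0.138). The other 4 ran from -0.20 at Tars to 0.70 at Vars and did not pass. The ribosomal sites at Rpl7 and Rpl30 did not pass either. Rpl30 was close to the threshold, at 0.71 (SE 0.25, edgeR adjusted p = 0.0521), and Rpl7 was at 0.31 (SE 0.24, edgeR adjusted p = 0.422). Rpl7 (chr1:16104051-16106433, also at an end of Rdh10) was, in the libraries of the rule, at 82.5 CPM in control KIT-positive and KIT-negative cells and 85.8 CPM in later ones, and had 109, 84.9 and 97.5 CPM in deleted KIT-positive and 86.8, 81.8 and 102 CPM in deleted MCAM-high libraries. Etf1, the release factor that ends translation, had 151, 130.3 and 103 CPM in deleted KIT-positive and 93.3, 113 and 89.98 CPM in deleted MCAM-high libraries (log2 fold change 0.57, SE 0.23, edgeR adjusted p = 0.0895). At Rpl7 and Etf1 the 2 groups overlapped. Eif3h, an initiation factor subunit, had a log2 value of 0.55 (SE 0.29, edgeR adjusted p = 0.206).

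In energy supply, 3 of the 5 respiratory sites rose in deleted KIT-positive cells, with a median log2 fold change of 0.86. The same test called 24.3% of all members and 9.39% of all tested peaks higher, with medians of 0.47 and -0.05. Ndufb5, a subunit of complex I, shares its site with Mrpl47, a mitochondrial ribosomal protein (chr3:32736320-32737589), and had 116, 116 and 101 CPM in deleted KIT-positive, 81.2, 82.0 and 59.7 CPM in deleted MCAM-medium and 76.5, 62.7 and 49.99 CPM in deleted MCAM-high libraries. All 3 KIT-positive libraries lay above the other 6. The log2 fold change was 1.02 against MCAM-high (SE 0.23, edgeR adjusted p = 0.00165). Atp5b, the catalytic subunit of ATP synthase, rose by 1.05 (SE 0.24, edgeR adjusted p = 0.00249) and Ndufv2, another complex I subunit, by 0.86 (SE 0.24, edgeR adjusted p = 0.0111). The call of Ndufv2 was lost without deleted MCAM-high replicate 2 (edgeR adjusted p = 0.0548). Sdhb of complex II was at 0.65 (SE 0.26, edgeR adjusted p = 0.0841) and Cox5b of complex IV at 0.40 (SE 0.26, edgeR adjusted p = 0.333), so the sites outside complex I and ATP synthase did not pass.

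In protein folding and turnover, the 5 chaperone genes held 4 sites, since Hspd1 and Hspe1, the mitochondrial chaperonin pair, share one. Of these 4 sites 3 rose, with a median log2 fold change of 0.71, where 24.3% of all members and 9.39% of all tested peaks were called higher. Hspa5, the chaperone BiP of the endoplasmic reticulum, is the strongest of them (chr2:34771413-34772650, window printed above), with 206, 181 and 189 CPM in deleted KIT-positive and 126, 166 and 141 CPM in deleted MCAM-high libraries (log2 fold change 0.61, SE 0.20, edgeR adjusted p = 0.0315). The shared Hspd1 and Hspe1 site rose by 0.83 (SE 0.26, edgeR adjusted p = 0.0229) and Hsp90ab1, a cytosolic HSP90, by 0.81 (SE 0.25, edgeR adjusted p = 0.0229). The call of Hspa5 was lost without deleted MCAM-high replicate 1 or 3 or deleted KIT-positive replicate 1 or 3, and with total-count scaling, with no filter on low counts, with a replicate block or without the libraries of mostly even counts (edgeR adjusted p from 0.054 to 0.141). The call of the shared site was lost without deleted MCAM-high replicate 2 or 3 or deleted KIT-positive replicate 1, and with total-count scaling or without the libraries of mostly even counts (edgeR adjusted p from 0.0724 to 0.243). The call of Hsp90ab1 was lost without deleted MCAM-high replicate 2 or 3 or deleted KIT-positive replicate 2 or 3, and with total-count scaling (edgeR adjusted p from 0.0652 to 0.157). Cct8, of the cytosolic chaperonin, was at 0.13. Protein turnover sites were split. Rbx1, the RING subunit of cullin ligases, rose by 1.19 (SE 0.23, edgeR adjusted p = 0.000289). Vcp, the ATPase that extracts ubiquitinated proteins (chr4:42999610-43000877), had 153, 122 and 133 CPM in deleted KIT-positive and 104, 99.6 and 123 CPM in deleted MCAM-high libraries, and at 0.52 (SE 0.20, edgeR adjusted p = 0.0798) did not pass. The 4 proteasome sites, at Psma2, Psma5, Psma4 and Psmd1, had log2 fold changes of 0.07 to 0.57 and did not pass.

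In transcription and RNA processing, all 3 spliceosome sites rose, at Srsf7, Sf3a2 and Sf3b1, by 0.66, 0.72 and 0.70. These 3 calls stand beside 24.3% of all members and 9.39% of all tested peaks called higher, and none of the 3 held under all alternatives. Srsf7, an SR splicing factor (chr17:80206722-80207788), had 86.5, 85.4 and 96.8 CPM in deleted KIT-positive, 49.0, 51.7 and 54.0 CPM in deleted MCAM-medium and 64.4, 64.1 and 65.8 CPM in deleted MCAM-high libraries (edgeR adjusted p = 0.043). The 3 populations did not overlap, with MCAM-medium lowest. Adjusted p-values in edgeR were 0.0304 for Sf3a2 and 0.0409 for Sf3b1. The call of Srsf7 was lost without deleted MCAM-high replicate 1, 2 or 3 or deleted KIT-positive replicate 1, 2 or 3, and with size factors of the DESeq2 type, with total-count scaling, with no filter on low counts or with a replicate block (edgeR adjusted p from 0.0611 to 0.146). The call of Sf3a2 was lost without deleted MCAM-high replicate 1 or 3 or deleted KIT-positive replicate 1 or 3, and with total-count scaling, with no filter on low counts, with a replicate block or without the libraries of mostly even counts (edgeR adjusted p from 0.0589 to 0.144). The call of Sf3b1 was lost without deleted MCAM-high replicate 1, 2 or 3 or deleted KIT-positive replicate 1 or 3, and with size factors of the DESeq2 type, with total-count scaling, with no filter on low counts, with a replicate block, with only the groups compared or without the libraries of mostly even counts (edgeR adjusted p from 0.0556 to 0.189). Of the 4 polymerase II sites, whose median was 0.54, 2 rose. Polr2b, the second largest subunit, rose by 0.69 (SE 0.22, edgeR adjusted p = 0.0305) and Gtf2e1, of TFIIE, by 0.95 (SE 0.25, edgeR adjusted p = 0.00673). The call of Polr2b was lost without deleted MCAM-high replicate 1, 2 or 3 or deleted KIT-positive replicate 1, 2 or 3, and with total-count scaling, with no filter on low counts or with a replicate block (edgeR adjusted p from 0.0536 to 0.135). Gtf2h1, of TFIIH, was at 0.07 and Gtf2f1, of TFIIF, at 0.40.

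In genome maintenance, 1 of 5 repair sites rose, near the 24.3% of all members and against 9.39% of all tested peaks, and the list's median log2 fold change was 0.46. The site was that of Msh6, a mismatch repair protein (chr17:87974547-87975870), with 123, 96.5 and 101 CPM in deleted KIT-positive and 84.0, 73.0 and 48.3 CPM in deleted MCAM-high libraries (log2 fold change 0.84, SE 0.24, edgeR adjusted p = 0.0158). The call of Msh6 was lost without deleted MCAM-high replicate 3 or deleted KIT-positive replicate 1, and with total-count scaling or without the libraries of mostly even counts (edgeR adjusted p from 0.0572 to 0.13). Pms2, Mre11a, Ddb1 and Chek1 were at 0.42, 0.46, -0.26 and 0.63. Terf1, the shelterin protein that binds telomere repeats, had the one telomere site (chr1:15805286-15806402). It had 104, 83.8 and 83.0 CPM in deleted KIT-positive, 77.3, 82.7 and 76.1 CPM in deleted MCAM-medium and 86.8, 96.2 and 99.1 CPM in deleted MCAM-high libraries, against 64.1, 45.5 and 119 CPM in control KIT-positive, 109 and 96.0 CPM in control MCAM-medium and 78.3, 114 and 103 CPM in control MCAM-high libraries. The deleted KIT-positive and MCAM-high libraries overlapped (log2 fold change 0.13, SE 0.25, edgeR adjusted p = 0.772), and the mean deletion contrast, which uses the control libraries of the rule, was -0.09. The chromatin sites were those of Rnf2, a ubiquitin ligase of Polycomb complex PRC1, and Chd4, a remodeller of the NuRD complex, at 0.11 and 0.52. The meiosis sites were those of Sycp2, a synaptonemal complex protein, and Mybl1, a transcription factor of spermatocytes. Sycp2 (chr2:178406828-178407911) had 73.6, 83.2 and 69.2 CPM in deleted KIT-positive and 74.7, 78.4 and 95.8 CPM in deleted MCAM-high libraries, and 91.7, 83.1, 89.3, 74.2 and 82.2 CPM in later germ cells, which the rule used.

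Some sites were not at a gene end. The 3 highest in gene bodies each held an annotated start of the same gene. They lie in Mast3, a microtubule-associated kinase (chr8:70792224-70793183), Fer, a tyrosine kinase (chr17:63863264-63864621), and Dcun1d4, of a family that promotes neddylation of cullins (chr5:73490581-73492695). Fer had 210.3, 159.7 and 197 CPM in deleted KIT-positive and 116, 114 and 105 CPM in deleted MCAM-high libraries (log2 fold change 0.96, SE 0.21, edgeR adjusted p = 0.00137), without overlap. Dcun1d4 had 128, 145 and 113 CPM in deleted KIT-positive and 147, 138 and 151 CPM in deleted MCAM-high libraries (0.03, SE 0.21, edgeR adjusted p = 0.949), and Mast3 196, 179.7 and 168 CPM in deleted KIT-positive and 107, 149 and 146 CPM in deleted MCAM-high libraries (0.63, SE 0.24, edgeR adjusted p = 0.0709). Over all members, 61 sites away from a gene end held a start and 36 neither a gene end nor a start.

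Only 9 members lay over 10 kb from any protein-coding or lncRNA gene (0.85%, against 27.1% of autosomal peaks). The highest was 25877 bp from Tead4, a transcription factor gene (chr6:128200101-128201266), with 177, 139.8 and 116 CPM in deleted KIT-positive, 129, 109 and 130.1 CPM in deleted MCAM-medium and 95.2, 129.6 and 141 CPM in deleted MCAM-high libraries. Its groups overlapped, and later germ cells had 106, 112, 74.0, 97.1 and 83.8 CPM. The next was nearest to Trim55 (14999 bp, chr3:19627815-19629345) and overlapped a tRNA gene, with a mean of 91.1 ± 22.2 CPM over the 9 deleted libraries (SD). The others named were nearest to Gm42346 (12254 bp, over a transcribed pseudogene, 83.0 ± 13.7 CPM) and Ogfrl1 (109376 bp, 81.3 ± 14.0 CPM). None of the 4 passed in a comparison of deleted populations.

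What the promoters share in sequence was read from 1270 RefSeq windows whose start lies in a member, out of 32851 windows in all. Their median GC content was 65% against 52.7% over all windows, and their median CpG ratio (observed over expected from the bases) 0.854 against 0.384. An SP/KLF motif (GGGCGG) was in 78.0% of members' windows against 35.7% of all, and ETS (CCGGAAG) in 23.5 against 8.86%. NRF1 was in 14.5 against 4.60%, the E-box (CACGTG) in 11.6 against 7.15%, and CTCF in 6.61 against 3.43%. Other motifs of the stretches printed above were rarer, with CREB/ATF (TGACGTCA) in 4.65 against 1.79%, ZNF143 in 4.49 against 1.98%, YY1 in 2.76 against 0.852% and BANP in 2.52 against 0.466%. The TATA motif (TATAAA) of TBP was the exception, in 3.70% of members' windows against 13.6% of all. Of all windows, 16746 lie in no peak. In windows of autosomal peaks that missed the level limit, the median GC content was 59.3%. SP/KLF was in 55.6% of those windows, ETS in 14.7%, NRF1 in 7.94%, the E-box in 9.69%, CTCF in 5.24% and TBP in 7.11%. The shares were not adjusted for GC content. Strong sites highest in control KIT-positive cells had values close to those of members. There the median GC content was 64.7%, the CpG ratio 0.853, NRF1 was in 14.7% and TBP in 3.64% of windows. In strong sites highest in control KIT-negative cells the GC content was 61.7%, the CpG ratio 0.766, NRF1 was in 9.18% and TBP in 3.38%. All 11 motifs were searched on both strands, and a match is a run of letters, not a bound site.

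Among the 11 motifs, NF-Y (ATTGG) spanned the most percentage points between kinds of strong site. As a ratio, rarer motifs spanned more, such as YY1 at 0.483 to 3.40% and ZNF143 at 2.27 to 6.28%. It was in 46.8% of members' windows, 60.1% of windows in strong sites highest in control KIT-positive cells, 55.6% in those highest in control KIT-negative cells, 41.7% in those highest in later germ cells and 37.4% of all. Within the members it was in 51.6% of windows of sites called higher in deleted KIT-positive than in deleted MCAM-high cells and in 45.2% of those not called. GC content was 65.3 and 65% in these 2 sets. The Mon1b, Tom1 and Hspa5 windows printed above are all of sites called higher, and that of Tom1 holds no NF-Y match. ETS was in 23.5% of members' windows, 19.1% in sites highest in control KIT-positive cells, 23.7% in those highest in control KIT-negative cells and 24.7% in those highest in later germ cells. Within the members it was in 26.1% of windows of called sites and in 22.6% of those not called. SP/KLF was at 73.4 to 81.1% in all sets of strong sites. These shares are descriptions without a test.

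**Figure D5:**
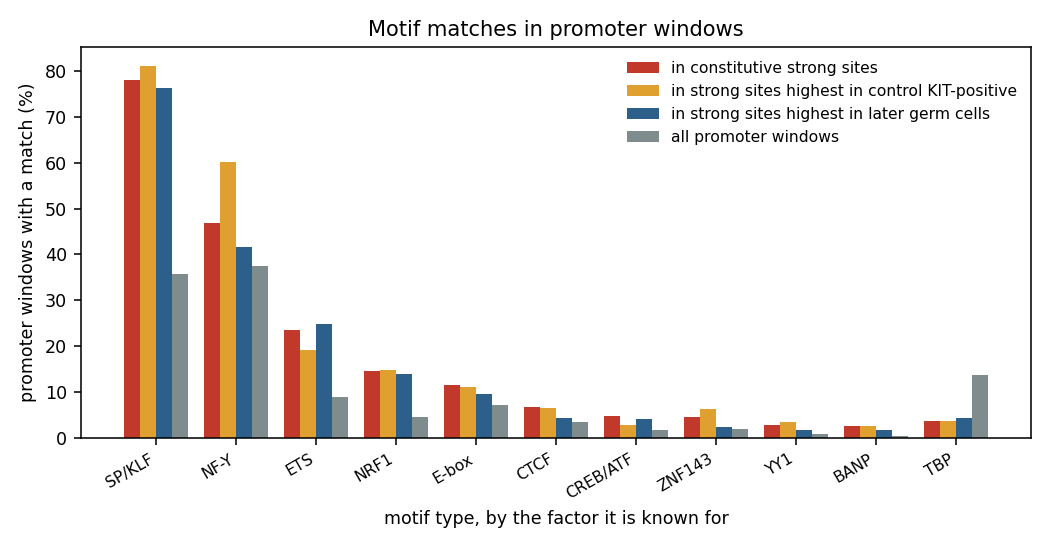
Share of RefSeq promoter windows with at least 1 match to each of 11 motif types (y axis, percent; x axis, factor), for windows in constitutive strong sites, in strong sites highest in control KIT-positive cells, in strong sites highest in later germ cells, and for all windows. SP/KLF reaches 78.0% in constitutive sites against 35.7% of all windows, NF-Y 46.8% against 60.1% in sites highest in control KIT-positive cells, and TBP 3.70% against 13.6% of all.

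The order of the 1059 sites by level was similar from library to library, though not fixed. Spearman's rho between libraries over the members was 0.76 to 0.79 within deleted KIT-positive, 0.67 to 0.75 within deleted MCAM-medium and 0.65 to 0.72 within deleted MCAM-high cells. It was 0.56 to 0.62 between deleted KIT-positive and deleted MCAM-high libraries, and 0.51 to 0.58 between later germ cells and deleted MCAM-high libraries. The later germ cell libraries are numbered here in the order in which the samples are listed, not as titled replicates. Among them rho was 0.75 to 0.81 without library 2, which had 0.65 to 0.80 with the others. These are correlations across sites that share a library and its depth, within a narrow range of levels, and are given as a description.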

How the data were processed

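ATAC-seq libraries of sorted mouse germ cells were taken as raw counts per peak, as deposited by the authors in 1 table of 96049 peaks and 22 libraries. Per the submitters' processing notes the tools were FastQC, Bowtie2, SAMtools and Picard, and the builds named were mm10, GRCm38 and hg19 with no role given. The peak caller, the counting tool, any shift for Tn5 and the handling of duplicates are not given in the sources used here. Uneven removal of duplicates or a different read unit would change the counts, and whether starts count from 0 or 1 is not stated, so coordinates are given as in the table. Total counts ranged from 922085 to 3358377.

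Levels are CPM of the total count. Differences come from edgeR 4.0.16 (R 4.3.3, TMM scaling, filterByExpr, quasi-likelihood test) fitted once to all 17 spermatogonial libraries in 6 groups on 57289 peaks, with p-values adjusted over all of them by the Benjamini-Hochberg method at a threshold of 0.05. The SE given for a log2 fold change is its absolute value divided by the square root of the F statistic of that test. The fit was tested on simulated counts. DESeq2 1.42.0, other scaling, no filter, fits to fewer groups, a replicate block and leaving out each replicate were the alternatives, and leaving out the 3 libraries of mostly even counts was added after seeing the data. Gene ends, starts and promoter windows came from RefSeq tables of GRCm38.p6, matched by position to the files' mm10-type coordinates.

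The members, gene lists and tests were chosen with earlier results of these data known. Sites are named by fixed ranks: the 6 highest at protein-coding gene ends, the 4 highest far from genes and 3 highest in gene bodies, the 4 with the lowest spread, those with the smallest p-values among called members, the highest member of each gene list, and the sites next to each limit of the rule. Members of lists with 5 or fewer sites are named as counted. A site of the first rank and a member of a list are not reported here. The printed windows and stretches were taken among the highest members that hold a match.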

Additional observations from a re-analysis of the deposited data

Results flagged for a closer look

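The later germ cell libraries were examined for the share of counts in members and for each named site, 44 sets of values in all. In 3 of these sets a library lay far from the other 4. The limit used is passed by about 1 in 20 sets of independent draws from 1 population. All sets share the same libraries, labelled as spermatocytes or round spermatids, so this rate is only a guide. The libraries are numbered in the order in which the samples are listed. At Mon1b, library 3 had 186 CPM and the others 170.2 to 174 CPM. At Tom1, library 5 had 149.5 CPM and the others 169.7 to 176 CPM. At Dgat1, which lies just inside the level limit, library 4 had 19.9 CPM and the others 43.2 to 50.9 CPM.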

How the results depend on the processing

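Of 45 tests of named sites between deleted populations, 26 were called, and 12 of these kept their call under all alternatives. The other 14 lost it in some, and no called site changed direction. With total-count scaling 127 members were called in deleted KIT-positive against deleted MCAM-high cells and 58 against MCAM-medium cells. Library names carry the same number across the sorts of a genotype, and the main fit did not pair libraries by it. Deviations of same-numbered libraries had correlations of -0.0825 to 0.0531 within a genotype and -0.0934 to 0.0921 between genotypes. For other numbers these were -0.0594 to 0.0826 and -0.0921 to 0.133. The deviations are from means of 2 or 3 libraries, so low correlations cannot exclude that same-numbered libraries share an origin. With a replicate block 190 members were called against MCAM-high cells and 72 against MCAM-medium cells, in place of 257 and 129. Fitting only the groups compared gave 6 members between MCAM-medium and MCAM-high cells.

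Leaving out 1 replicate gave 126 to 214 members against MCAM-high and 46 to 107 against MCAM-medium cells. Over all peaks it gave 4878 to 6432 and 2144 to 2848 calls in these comparisons and 0 to 4 between MCAM-medium and MCAM-high cells, where all libraries gave 8. For deleted against control it gave 54 to 80 for the mean (71 with all libraries), 13 to 27 for MCAM-high (28), 0 to 7 for MCAM-medium (5) and 0 to 2 for KIT-positive cells (2). It moved the number of peaks that meet the rule to 883 to 1198, and the share that meet the limits in deleted libraries to 78.1 to 83.7%. With TMM-scaled CPM the rule held for 858 peaks, of which 697 are members, the limits were met by 61.0%, and the median coefficient of variation was 24.4%. Within 2 kb of a gene end lay 93.4%.

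Between MCAM-medium and MCAM-high cells the number of peaks called was 5 with total counts, 407 without the filter, 1 with the block, 505 with only the groups compared and 19 with DESeq2. For deleted against control it was 159 for the mean, 101 for MCAM-high, 18 for MCAM-medium and 8 for KIT-positive cells without the filter. With only the groups compared it was 12 for MCAM-medium and 1 for KIT-positive cells, and DESeq2 gave 1 for KIT-positive cells. Leaving out the 3 libraries of mostly even counts, an alternative chosen after seeing the data, gave 178 members against MCAM-high and 50 against MCAM-medium cells. Over all peaks it gave 1590 calls against MCAM-medium cells, 0 between MCAM-medium and MCAM-high cells, and for deleted against control 46 for the mean and 0 for KIT-positive cells. The cause of these moves was not tested.

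Direction changed only at sites that were not called, in deleted KIT-positive against MCAM-high cells. With total counts the log2 fold change was -0.20 at Dcun1d4, -0.17 at Arfgap2, -0.089 at Arl13b, -0.0090 at Slc35f5, -0.079 at Eno1, -0.17 at Gtf2h1, -0.12 at Rnf2, -0.10 at Terf1 and -0.17 at Sycp2. With only the groups compared it was -0.088 at Dcun1d4, -0.057 at Arfgap2, -0.060 at Gtf2h1, -0.016 at Rnf2 and -0.056 at Sycp2. Without the libraries of mostly even counts it was -0.0056 at Dcun1d4, -0.014 at Arfgap2, -0.12 at Gtf2h1, -0.050 at Rnf2 and -0.020 at Terf1. At Dcun1d4 it was -0.020 with DESeq2 and -0.022 with its size factors. Without 1 replicate it ran from -0.051 to 0.12 at Dcun1d4, -0.085 to 0.19 at Gtf2h1, -0.018 to 0.30 at Rnf2 and -0.0093 to 0.17 at Sycp2. Depth limits precision most in the shallowest library, where the median member held 62 counts.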
